A study of Mus musculus with 6 samples.

Results

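The Z-disc genes described here are 10 rows of a mouse count table with 55286 gene symbols, taken by name: the alpha-actinins Actn1, Actn2, Actn3 and Actn4, the myozenins Myoz1, Myoz2 and Myoz3, and their partners Ldb3, Myot and Csrp3. All 10 were present in the table and passed the filter on low counts. RNA sequencing covered 6 libraries in 3 groups of 2. These were transdifferentiated cells, the name used here for the product of direct reprogramming, samples labelled Muscle, and mouse embryonic fibroblasts (MEF), which are primary connective-tissue cells. The series title speaks of trans-differentiation and its relation to developmental DNA methylation, and the comparisons ask how far the converted cells carry the Z-disc transcripts of muscle. The sources used here do not give the strain or age of the mice, the muscle taken, the starting cells, factor or duration of the conversion, or the origin of the replicates. Library descriptions begin with STauMEF for MEF, SEndomuscle for Muscle and SiMuscle for transdifferentiated cells, tags that the sample labels do not explain. No source says that paired libraries are separate cultures or animals, so p-values measure only the spread between libraries, which may be technical.

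The Z-disc is the plate at each end of the sarcomere where actin filaments of neighbouring sarcomeres are anchored. Alpha-actinin, a rod-shaped dimer, cross-links these filaments. Actn2 is the isoform of all striated fibres and the heart, Actn3 that of fast fibres, and Actn1 and Actn4 bundle actin at adhesions and stress fibres of non-muscle cells. Myozenins (also called calsarcins) bind alpha-actinin and the phosphatase calcineurin, with Myoz2 known from heart and slow fibres and Myoz1 and Myoz3 from fast fibres. Ldb3 (Cypher or ZASP) is a PDZ-LIM protein of striated muscle, Myot (myotilin) cross-links actin and binds alpha-actinin and filamin C, and Csrp3 (muscle LIM protein) is a small LIM protein of striated muscle.

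Total counts per library ranged from 16817033 to 24584951, and a count of 0 allows up to 3 counts, or 0.128 to 0.182 CPM (read counts scaled to library size), in a single library. The 6 skeletal muscle markers (Ckm, Acta1, Tnnt3, Tnni2, Myog and Myod1) summed to 24250 and 38290 CPM in transdifferentiated cells and to 35170 and 29580 CPM in muscle, against 371.8 and 225.1 CPM in MEF. Acta1 made up most of each sum, at 18850 and 32240 CPM in transdifferentiated cells and 29150 and 23170 CPM in muscle. Ckm and Myog were lower in both transdifferentiated libraries than in both muscle libraries, and Acta1, Tnnt3, Tnni2 and Myod1 overlapped. In the muscle libraries Myog was at 1101 and 991 CPM and Myod1 at 723.5 and 621.5 CPM. Embryonic Myh3 was at 6417 and 7293 CPM there, beside 1221 and 1182 CPM for 3 adult fast myosins in sum. Muscle here means these samples, whose maturity was not tested. Of 8 cardiac markers, Nkx2-5, Myl7, Nppa and Tnni3 stayed under 1 CPM in all 6 libraries, and Tbx20 and Nppb reached at most 1.816 and 6.008 CPM. Myh6, the alpha myosin heavy chain of heart, was at 28.3 and 24.04 CPM in transdifferentiated cells and 31.57 and 25.6 CPM in muscle, against 0.2201 and 0 CPM in MEF. Myl4, the atrial light chain that embryonic skeletal muscle also makes, was at 3249 and 2926 CPM in transdifferentiated cells and 3853 and 3665 CPM in muscle, against 7.814 and 6.114 CPM in MEF. Muscle libraries held few macrophage or endothelial reads, with 8 macrophage markers at 3.877 and 1.824 CPM in sum and 6 endothelial markers at 2.088 and 0.4256 CPM. In transdifferentiated cells the macrophage markers summed to 450.7 and 477.1 CPM, against 52.61 and 37.7 CPM in MEF. The 8 fibroblast markers summed to 16340 and 22250 CPM in transdifferentiated cells and 19650 and 11360 CPM in muscle, against 45890 and 29420 CPM in MEF, mostly from Col1a1, Col1a2, Col3a1 and Fn1. Of the others, Lum was at 163.2 and 99.15 CPM in transdifferentiated cells and 1.278 and 0.5472 CPM in muscle, against 43.47 and 49.35 CPM in MEF. Pdgfra was at 58.28 and 56.25 CPM in transdifferentiated cells and 8.435 and 3.709 CPM in muscle, against 79.62 and 101.6 CPM in MEF. Thy1 and Dcn were likewise lower in both muscle libraries than in the 4 others. These are bulk libraries, in which fewer cells of a type and less RNA per cell cannot be told apart.

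Sequence just before the RefSeq transcription start was available for 6 of the 10 genes in RefSeq (GRCm38.p6). The 250 bases upstream of the first listed start are printed below, 5′ to 3′, to set the 4 muscle-type genes beside the non-muscle Actn1 and Actn4. Capitals mark the E-box CANNTG, which is the kind of site bound by MyoD and its relatives, the MEF2 motif and the CArG box, a binding motif of serum response factor. Each of these 3 patterns reads the same on both strands. Gene spans given further on are those of GENCODE M21, whose starts differ from the RefSeq ones. By GENCODE the last 28 bases of the Myoz2 and Actn2 windows, the last 8 of Actn1 and Actn4 and the last 1 of Ldb3 lie inside the gene, and 0 of Csrp3.
Myoz2 (chr3:123034988-123035237, minus strand): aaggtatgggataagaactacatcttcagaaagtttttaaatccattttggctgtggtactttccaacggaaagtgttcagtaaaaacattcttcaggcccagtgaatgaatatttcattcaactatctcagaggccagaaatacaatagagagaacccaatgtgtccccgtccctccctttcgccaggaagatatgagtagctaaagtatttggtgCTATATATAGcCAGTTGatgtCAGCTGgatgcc
Csrp3 (chr7:48848052-48848301, minus strand): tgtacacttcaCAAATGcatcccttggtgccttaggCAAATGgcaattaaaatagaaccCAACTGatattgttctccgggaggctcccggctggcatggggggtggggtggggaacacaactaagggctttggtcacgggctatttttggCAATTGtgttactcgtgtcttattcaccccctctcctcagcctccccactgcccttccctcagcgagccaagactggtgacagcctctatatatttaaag
Actn2 (chr13:12340733-12340982, minus strand): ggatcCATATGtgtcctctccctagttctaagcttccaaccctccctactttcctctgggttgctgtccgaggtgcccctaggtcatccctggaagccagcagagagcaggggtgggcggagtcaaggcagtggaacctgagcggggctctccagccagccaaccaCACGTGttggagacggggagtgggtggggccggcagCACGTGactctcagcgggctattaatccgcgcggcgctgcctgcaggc
Ldb3 (chr14:34588682-34588931, minus strand): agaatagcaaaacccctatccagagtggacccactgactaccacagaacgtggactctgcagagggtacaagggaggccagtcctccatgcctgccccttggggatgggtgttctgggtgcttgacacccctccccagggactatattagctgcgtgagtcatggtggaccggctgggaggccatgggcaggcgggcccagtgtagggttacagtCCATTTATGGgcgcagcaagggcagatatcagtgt
Actn1 (chr12:80260364-80260613, minus strand): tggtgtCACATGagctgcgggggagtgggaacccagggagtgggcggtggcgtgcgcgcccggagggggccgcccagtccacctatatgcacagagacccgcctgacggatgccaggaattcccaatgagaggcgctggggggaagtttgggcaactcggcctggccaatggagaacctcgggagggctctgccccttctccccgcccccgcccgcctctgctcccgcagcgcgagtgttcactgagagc
Actn4 (chr7:28962333-28962582, minus strand): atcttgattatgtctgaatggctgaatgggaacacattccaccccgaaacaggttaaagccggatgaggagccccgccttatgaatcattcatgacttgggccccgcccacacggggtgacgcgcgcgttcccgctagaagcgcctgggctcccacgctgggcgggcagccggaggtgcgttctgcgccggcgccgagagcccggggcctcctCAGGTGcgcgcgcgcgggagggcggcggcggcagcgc
An E-box was present in 5 of the 6 windows, all but that of Ldb3, and in 66.2% of all 32851 promoter windows of this length. Myoz2 held 2 E-boxes, at -22 to -17 and -12 to -7 relative to the RefSeq start (within the gene by GENCODE), of which the second was the form CAGCTG, present in 13.0% of all windows. It was also the only window of the 6 with a match to the MEF2 motif, CTATATATAG at -33 to -24 (partly within the gene by GENCODE). Of all windows 2.92% had such a match. Ldb3 held the only CArG box, CCATTTATGG at -35 to -26, against 1.47% of all windows. Csrp3 held 4 E-boxes and Actn2 held 3, among them CACGTG at -84 to -79 and -48 to -43. The non-muscle Actn1 and Actn4 held 1 each, CACATG at -244 to -239 and CAGGTG at -37 to -32. The non-muscle genes Actn1 and Actn4 had 68.4% and 67.6% G and C in these windows and 4 and 3 copies of GGGCGG, counted on both strands, a sequence found in 32.7% of all windows. Actn2 stood next with 63.2% G and C and a single GGGCGG, whereas Myoz2 had 40.8%, and the median over all windows was 52.4%. These matches describe letters in a window and say nothing of binding.

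Transdifferentiated cells carried the sarcomeric alpha-actinins Actn2 and Actn3 at 718 and 310 times the fibroblast level and the non-muscle Actn1 and Actn4 at 0.32 and 0.305 of it. Over the 10 genes 8 were higher, 2 were lower and 0 were neither in transdifferentiated cells against MEF. Calls used the F test of edgeR's quasi-likelihood fit, with p-values adjusted over 17400 genes by Benjamini-Hochberg and a threshold of 0.05. In the same comparison 27.3% of all tested genes were called, 15.9% higher and 11.3% lower. Muscle against MEF gave 8 higher, 2 lower and 0 neither, where 35.6% of all tested genes were called, 17.3% higher and 18.3% lower. The median log2 fold change of the 10 was 8.88 in transdifferentiated cells and 8.79 in muscle, beside medians of 0.07 and 0 over all tested genes. With Myoz1 set at its lower bound the medians were 7.78 and 7.51. Of the 10 genes 5 (Myoz1, Myoz2, Myoz3, Myot and Csrp3) passed the filter only through the muscle-type libraries, so their difference from MEF was partly fixed by the filter. The comparisons against MEF share the same 2 MEF libraries, and their values are given side by side only.

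**Figure D1:**
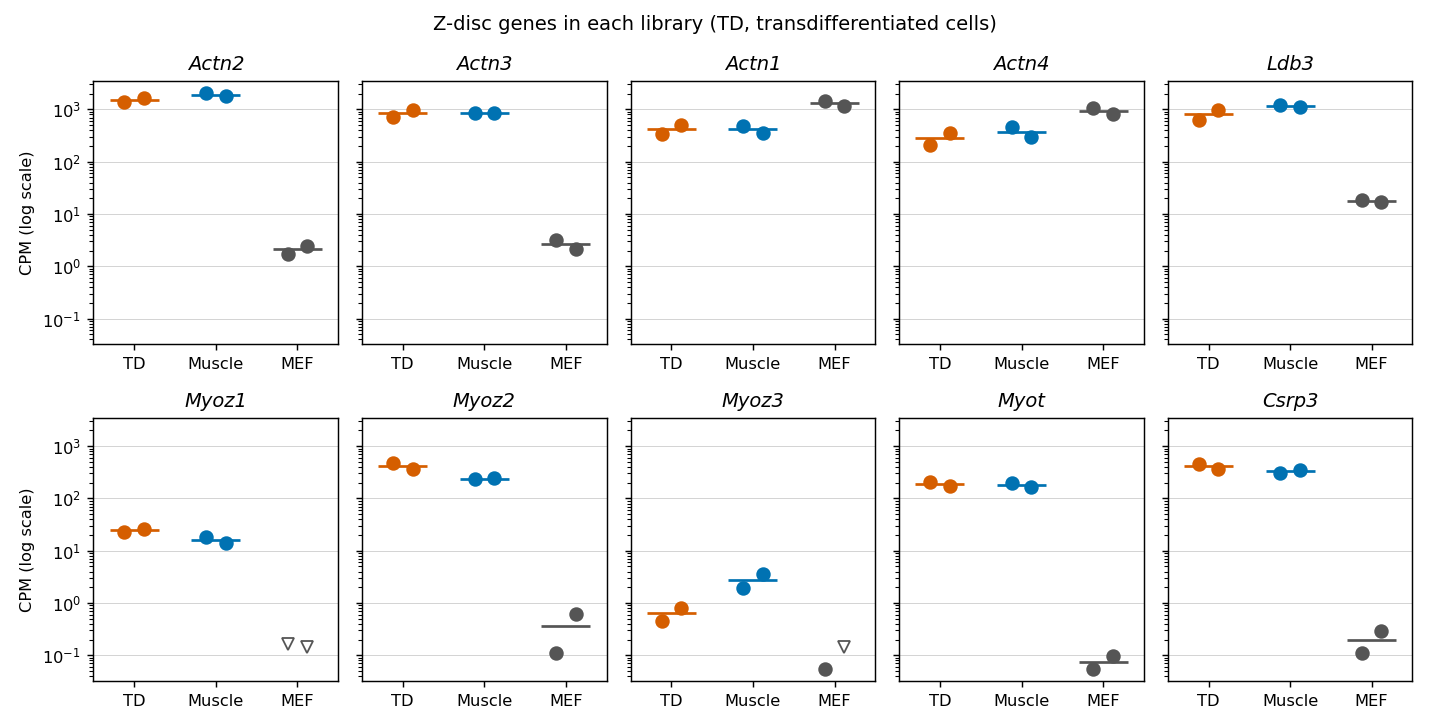
Level of each of the 10 genes in each library, in CPM on a log axis, with points for single libraries and lines for group means (TD, transdifferentiated cells). Open triangles mark libraries with 0 counts, drawn at the upper limit that 3 counts give, which in Myoz3 lies above the other MEF library's single count. Only Actn1 and Actn4 are highest in MEF.

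Actn2 (chromosome 13, 12269426 to 12340760, minus strand, mm10), the general sarcomeric alpha-actinin, was at 1392 and 1667 CPM in transdifferentiated cells and 2060 and 1782 CPM in muscle, against 1.761 and 2.475 CPM in MEF. All 4 muscle-type libraries lay above both MEF libraries, and the transdifferentiated libraries lay below both muscle libraries. The log2 fold change against MEF was 9.49 ± 0.37 in transdifferentiated cells (SE; edgeR adjusted p = 1.41e-06) and 9.82 ± 0.37 in muscle (edgeR adjusted p = 9.44e-07). Transdifferentiated cells reached 79.6% of the muscle level, a difference that was not called (log2 fold change -0.33, 95% interval -0.89 to 0.24, edgeR adjusted p = 0.556).

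Actn3 (chromosome 19, 4861216 to 4877909, minus strand), the fast-fibre alpha-actinin, had 726.2 and 953.9 CPM in transdifferentiated cells and 865.4 and 862.1 CPM in muscle, against 3.247 and 2.184 CPM in MEF. The transdifferentiated libraries lay on either side of the muscle libraries. It rose by 8.28 ± 0.37 log2 units in transdifferentiated cells (SE; edgeR adjusted p = 1.89e-06) and by 8.31 ± 0.37 in muscle (edgeR adjusted p = 1.43e-06). Against muscle the log2 fold change in transdifferentiated cells was -0.04 with a 95% interval of -0.64 to 0.56.

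Actn1 (chromosome 12, 80167547 to 80260371, minus strand), which links actin bundles to integrin adhesions, stood at 345.2 and 498.4 CPM in transdifferentiated cells and 489.5 and 354.7 CPM in muscle, against 1459 and 1174 CPM in MEF. Both MEF libraries lay above the 4 others, and the transdifferentiated and muscle libraries overlapped. Its log2 fold change was -1.64 ± 0.29 in each comparison with MEF (SE; edgeR adjusted p = 0.00345 in transdifferentiated cells and 0.00252 in muscle). The mean was 421.8 CPM in transdifferentiated cells and 422.1 CPM in muscle, with a 95% interval of the log2 difference of -0.64 to 0.64.

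Actn4 (chromosome 7, 28893248 to 28962340, minus strand), the other non-muscle isoform, was at 210.5 and 355.6 CPM in transdifferentiated cells and 455.3 and 301.3 CPM in muscle, against 1043 and 814 CPM in MEF. It was again highest in both MEF libraries, and the other groups overlapped. The log2 fold change was -1.71 ± 0.34 in transdifferentiated cells (SE; edgeR adjusted p = 0.00568) and -1.30 ± 0.33 in muscle (edgeR adjusted p = 0.0147). The muscle difference was not called without Muscle replicate 2 (log2 fold change -1.02, edgeR adjusted p = 0.132). Against muscle the log2 fold change was -0.42 with a 95% interval of -1.16 to 0.32. Actn1 and Actn4 overlap exons of genes on the opposite strand, which held at most 16 counts in any library (Gm47766, Gm47767 and Capn12). As the strand setting of the counting was not given, these counts cannot show whether reads in shared exons were lost.

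Actn1 and Actn4 are also made by fibroblasts and smooth muscle, whose marker sums were likewise highest in MEF. Smooth muscle markers, which fibroblasts also express, summed to 2363 and 3251 CPM in transdifferentiated cells and 4368 and 2819 CPM in muscle, against 13720 and 10090 CPM in MEF. Most of each sum was Acta2. Acta2, Myh11, Tagln, Cnn1 and Lmod1 were highest in both MEF libraries. Smtn was not, at 251.7 and 198.6 CPM in muscle, against 161.4 and 92 CPM in MEF. Of the fibroblast markers, Thy1, Pdgfra, Col1a2 and Fn1 were highest in both MEF libraries, and Col1a1, Col3a1, Dcn and Lum were not. The part of remaining fibroblast-type cells in the Actn1 and Actn4 values was not tested.

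Divided by exon length, so that genes can be set beside each other, the 4 alpha-actinins together reached 815.1 ± 143 CPM per kb in transdifferentiated cells and 942 ± 87.6 in muscle, against 391 ± 63.1 in MEF (SD, n = 2). The sarcomeric isoforms Actn2 and Actn3 made up 86.45% and 83.84% of the alpha-actinin total in transdifferentiated cells and 83.79% and 87.13% in muscle, against 0.3635% and 0.4056% in MEF. The exact binomial 95% interval of the first transdifferentiated library was 86.19% to 86.71%, and such intervals cover counting error only, as reads are not independent molecules. The transdifferentiated and muscle ranges overlapped, and both lay far from MEF.

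Within the sarcomeric pair Actn3 took 40.56% and 42.8% per kb in transdifferentiated cells, against 35.47% and 38.75% in muscle. The groups did not overlap, but 2 against 2 libraries cannot give a two-sided exact permutation p under 0.333. In MEF the same share was 70.69% and 53.58%, from only 91 and 96 reads of the pair, with intervals of 60.68% to 79.31% and 43.04% to 63.74%. Actn2 was the most abundant of the 10 per kb in transdifferentiated cells and in muscle (403.1 ± 51.2 and 506.2 ± 51.8 CPM per kb), followed by Actn3 (289.6 ± 55.5 and 297.8 ± 0.804). In MEF the order was led by Actn1 and Actn4 (237.9 ± 36.5 and 151.5 ± 26.4 CPM per kb), with Ldb3 next at 2.862 ± 0.159.

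**Figure D2:**
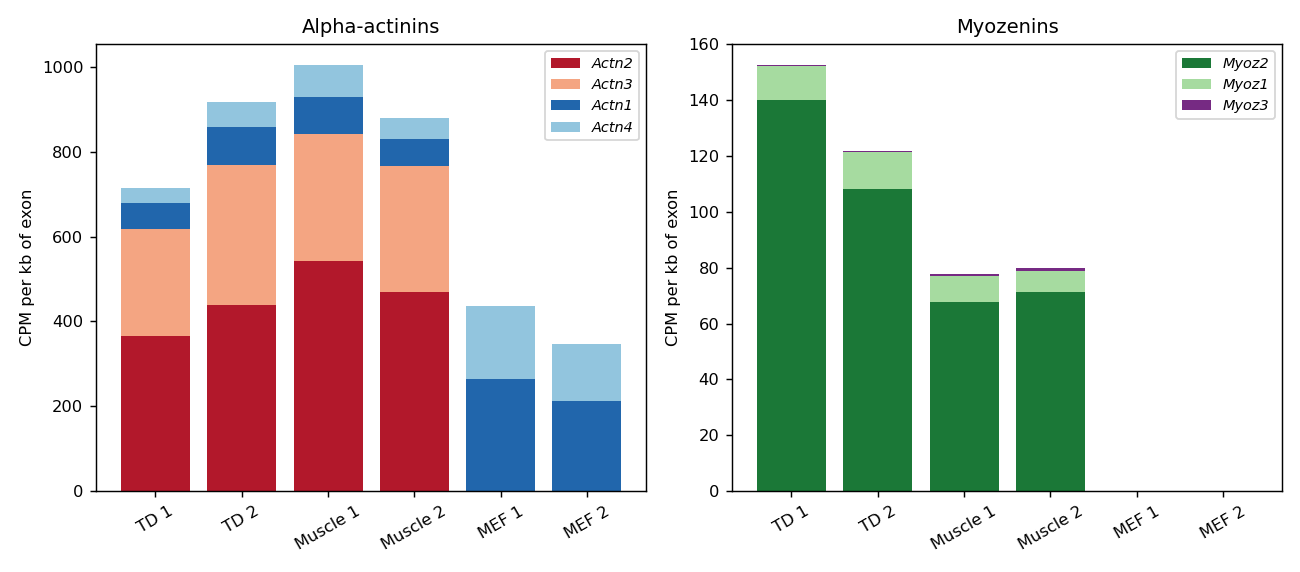
Alpha-actinin (left) and myozenin (right) transcripts in each library, as CPM per kb of exon stacked by gene (TD, transdifferentiated cells). Actn2 and Actn3 fill most of the bar in the 4 muscle-type libraries and less than 1% of it in MEF, and Myoz2 fills most of every myozenin bar that can be seen.

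The myozenins were near 0 in MEF, with 3 and 13 reads over the 3 genes together, and Myoz2 was by far the most abundant of them in both muscle-type groups. Myoz2 (chromosome 3, 123006206 to 123035015, minus strand), whose window with the MEF2 motif is printed above, was at 479.1 and 369.8 CPM in transdifferentiated cells and 231.5 and 244.2 CPM in muscle, against 0.1101 and 0.6308 CPM in MEF. Both transdifferentiated libraries lay above both muscle libraries. Against MEF the log2 fold change was 10.09 ± 0.57 in transdifferentiated cells (SE; edgeR adjusted p = 5.78e-06) and 9.26 ± 0.56 in muscle (edgeR adjusted p = 6.02e-06). These folds rest on 15 MEF reads, and were 9.37 and 8.54 without MEF replicate 1 and 11.83 and 10.99 without MEF replicate 2. Transdifferentiated cells stood at 178% of the muscle level, with a log2 fold change of 0.84 and a 95% interval of 0.02 to 1.66. This passed at an unadjusted p = 0.0468 in the edgeR fit but was not called after adjustment over all genes (edgeR adjusted p = 0.222).

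Myoz1 (chromosome 14, 20649107 to 20656540, minus strand), the fast-fibre myozenin, was at 23.24 and 25.63 CPM in transdifferentiated cells and 17.94 and 14.29 CPM in muscle, with 0 counts in both MEF libraries. Against the mean MEF limit of 0.155 CPM this was at least 157-fold higher in transdifferentiated cells and at least 104-fold higher in muscle (edgeR adjusted p = 1.31e-05 and 1.44e-05). The transdifferentiated libraries lay above both muscle libraries, but the log2 fold change of 0.60 was not called (95% interval -0.10 to 1.30, edgeR adjusted p = 0.322).

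Myoz3 (chromosome 18, 60573750 to 60591788, minus strand), the other fast-type myozenin, was scarce everywhere, with 8 and 17 counts in transdifferentiated cells and 45 and 59 in muscle, against 1 and 0 in MEF. In CPM it was 0.4492 and 0.8222 in transdifferentiated cells and 1.917 and 3.587 in muscle. The ratio to MEF was 25.2 in transdifferentiated cells (exact interval 4.12 to 1030) and 101 in muscle (17.7 to 4030), from a single MEF read and covering counting error only. It was called higher than MEF in both (edgeR adjusted p = 0.0187 and 0.00129). In transdifferentiated cells the call was lost without MEF replicate 2 (adjusted p = 0.0661) or without Transdifferentiated replicate 2 (0.0576), and the log2 fold change of 4.32 became 3.39 and 6.68 without MEF replicate 2 and 1. In muscle the log2 fold change of 6.41 became 5.47 and 8.76 without the same libraries.

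Myoz3 was the member with the widest gap between transdifferentiated cells and muscle, at 23.1% of the muscle mean with no overlap between libraries. Its log2 fold change of -2.08 ± 0.67 (SE) had a 95% interval of -3.60 to -0.57 and was not called (edgeR adjusted p = 0.0932). It was called, as lower in transdifferentiated cells, without MEF replicate 1 (adjusted p = 0.0451) or 2 (0.0452). Per kb, Myoz2 made up 91.85% and 88.68% of the myozenin total in transdifferentiated cells and 87.08% and 89.25% in muscle. Myoz1 made up 8.062% and 11.12% in transdifferentiated cells and 12.21% and 9.446% in muscle, and Myoz3 0.08578% and 0.1964% in transdifferentiated cells and 0.7184% and 1.306% in muscle. The Myoz1 and Myoz2 shares overlapped between the groups and the Myoz3 shares did not. The summed myozenin level was 137.1 ± 21.6 CPM per kb in transdifferentiated cells and 78.81 ± 1.61 in muscle, against 0.1162 ± 0.0962 in MEF (SD, n = 2).

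Ldb3 (chromosome 14, 34526603 to 34588682, minus strand), the PDZ-LIM partner of alpha-actinin, had 614.2 and 989.6 CPM in transdifferentiated cells and 1203 and 1092 CPM in muscle, against 18.16 and 16.79 CPM in MEF. Among the 8 members that were higher than MEF it had the highest MEF level, and both transdifferentiated libraries lay below both muscle libraries. The log2 fold change against MEF was 5.52 ± 0.33 in transdifferentiated cells (SE; edgeR adjusted p = 8.16e-06) and 6.04 ± 0.34 in muscle (edgeR adjusted p = 4.56e-06). Transdifferentiated cells stood at 69.9% of muscle, a difference that was not called (log2 fold change -0.52, 95% interval -1.14 to 0.11, edgeR adjusted p = 0.34).

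Myot (chromosome 18, 44334074 to 44355724, plus strand), which stabilises actin bundles at the Z-disc, was at 205.8 and 174.4 CPM in transdifferentiated cells and 195.5 and 164.3 CPM in muscle, against 1 and 2 counts in the MEF libraries. The ratio to MEF was 2440 in transdifferentiated cells (exact interval 835 to 11800) and 2360 in muscle (808 to 11500), with edgeR adjusted p = 1.41e-06 and 9.44e-07. The transdifferentiated and muscle libraries overlapped, and the log2 fold change between them was 0.08 with a 95% interval of -0.47 to 0.63.

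Csrp3 (chromosome 7, 48830398 to 48848033, minus strand), the muscle LIM protein, was at 455.1 and 370.9 CPM in transdifferentiated cells and 305.9 and 353.7 CPM in muscle, against 2 and 6 counts in the MEF libraries. Both transdifferentiated libraries lay above both muscle libraries by a narrow margin. Against MEF it rose by 10.93 ± 0.45 on the log2 scale in transdifferentiated cells (SE; edgeR adjusted p = 1.55e-06) and by 10.61 ± 0.45 in muscle (edgeR adjusted p = 1.16e-06), and by 11.79 and 11.46 without MEF replicate 2. The difference from muscle was not called (log2 fold change 0.32, 95% interval -0.29 to 0.94, edgeR adjusted p = 0.603).

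Across transdifferentiated cells against muscle, 0 of the 10 genes were called higher and 0 lower by edgeR, where 10% of all tested genes were called, 7.58% higher and 2.46% lower. At an unadjusted p under 0.05 there were 2, Myoz2 and Myoz3, and the DESeq2 Wald test called 0. The shares of all tested genes at that threshold and in DESeq2 are not given here, so neither count sets these genes apart. The median log2 fold change of the 10 was -0.02, beside 0.03 over all tested genes. The 95% interval of each of the 10 reached at least 0.63 from 0 on the log2 scale on one side, so smaller differences were not resolved. Macrophage markers and the fibroblast markers Lum, Dcn, Pdgfra, Thy1, Col1a2 and Col3a1 were higher in both transdifferentiated libraries than in either muscle library. The fibroblast markers Col1a1 and Fn1 overlapped between transdifferentiated cells and muscle. The part of these cell types in the comparison was not tested.

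**Figure D3:**
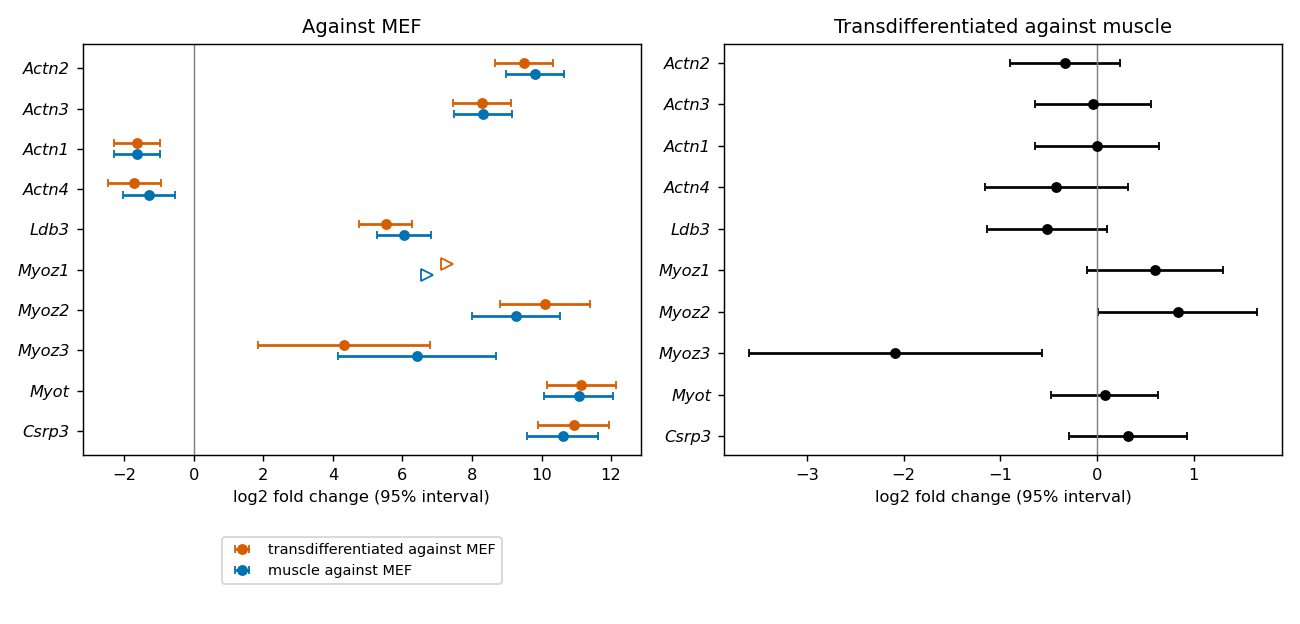
Log2 fold changes of the 10 genes with 95% intervals derived from the edgeR F statistic, against MEF (left) and for transdifferentiated cells against muscle (right, on its own scale). Open triangles give Myoz1 at its lower bounds of 7.29 and 6.70, since both MEF libraries had 0 counts. On the right the intervals of Myoz2 and Myoz3 leave out 0 before adjustment, and 0 of the 10 were called after it.

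In the authors' deposited table, whose header names no contrast and whose sign matched MEF over muscle in all 2645 listed genes tested here, 8 of the 10 genes were listed. In the authors' deposited table the log2 fold changes ran from -5.52 for Myoz3 to -10.68 for Myot, with adjusted p-values from 6.39e-85 (Actn3) to 6.59e-05 (Myoz3). Actn1 and Actn4 were not among the genes of the authors' deposited table, which held none with a log2 fold change under 2 in size.

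Of all genes averaging 20 CPM or more (7342, members left out), the 3 whose log2 CPM pattern over the 6 libraries lay nearest to Actn2 were Smyd1, Tnnt3 and Actc1, with root mean square differences of 0.21, 0.22 and 0.23 on the log2 scale. Smyd1 is a methyltransferase of striated muscle, Tnnt3 the fast troponin T and Actc1 the cardiac actin also made in immature skeletal muscle. Nearest to Csrp3 were Mybpc1, Myh8 and Lmod2 (0.19, 0.27 and 0.39), and nearest to Myoz2 were Art1, Tceal7 and Mybpc1 (0.41, 0.41 and 0.42). Nearest to Actn4 were Mcam, Ass1 and Fn1 (0.13, 0.14 and 0.15), the last of them fibronectin, itself 1 of the 8 fibroblast markers. Among the members themselves the closest pair was Actn1 and Actn4 (0.20), then Myot and Csrp3 (0.27) and Actn2 and Myot (0.30).

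Other Z-disc genes, 46 in 7 lists by role, were all tested. In transdifferentiated cells against MEF 27 were higher, 8 lower and 11 neither, with a median log2 fold change of 2.13, beside shares of 15.9% called higher and 11.3% called lower over the whole fit. In muscle against MEF 24 were higher, 4 lower and 18 neither, with a median of 1.63, beside 17.3% and 18.3% over the whole fit, in the same order. Of 9 titin and nebulin anchors 8 were higher in each comparison (medians 8.45 and 9.34), Nebl being neither, a name given after its values were seen. All 3 tripartite motif ligases of the sarcomere were higher in each, with Trim55 at a log2 fold change of 9.34 ± 0.38 in transdifferentiated cells and 9.81 ± 0.38 in muscle (SE; edgeR adjusted p = 1.41e-06 and 9.44e-07). Pdlim3, the muscle PDZ-LIM protein that binds alpha-actinin-2, stood at 679.9 and 735.2 CPM in transdifferentiated cells and 762.3 and 781.8 CPM in muscle, against 3.742 and 3.979 CPM in MEF. Its libraries were apart from MEF in every case. Ankrd2, a stretch-responsive titin-binding protein, rose by 9.10 ± 0.39 in transdifferentiated cells (edgeR adjusted p = 1.55e-06), and titin itself (Ttn) by 10.41 ± 0.41 in muscle (edgeR adjusted p = 9.64e-07). Both Ankrd2 and Ttn were called higher in each comparison with MEF. In MEF Trim55 was at 0.1651 and 0.2426 CPM and Ankrd2 at 0.3852 and 0.2426 CPM. These genes and others counted as higher, among them Tcap, Nrap, Mypn and Xirp1, passed the filter only through the muscle-type libraries. Their difference from MEF was thus partly fixed by the filter.

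Flna, a filamin that cross-links actin, was lower in both comparisons with MEF. It was at 286.2 and 439.6 CPM in transdifferentiated cells and 382.5 and 254.6 CPM in muscle, against 2785 and 2055 CPM in MEF. Both MEF libraries lay above the 4 others. The log2 fold change of Flna was -2.74 ± 0.34 in transdifferentiated cells (SE; edgeR adjusted p = 0.000485) and -2.93 ± 0.34 in muscle (edgeR adjusted p = 0.000238). The LIM protein Fhl2 fell in transdifferentiated cells (-2.10 ± 0.27, edgeR adjusted p = 0.000595), and Csrp1, the non-striated relative of Csrp3, fell in muscle (-2.69 ± 0.31, edgeR adjusted p = 0.000229). Both Fhl2 and Csrp1 were called lower in each comparison with MEF. The PDZ-LIM and LIM list was mixed, with 3 higher, 5 lower and 3 neither in transdifferentiated cells and 2, 2 and 7 in muscle. Of 5 calcineurin subunits and regulators, partners of the myozenins, 3 were higher and 2 neither in transdifferentiated cells, and 1 was higher and 4 neither in muscle. Actin capping protein, the barbed-end cap at the Z-disc and elsewhere, had 1 lower and 2 neither of 3 genes in transdifferentiated cells and 3 neither in muscle. Desmin and the chaperones had 4 of 5 higher in each comparison. Over the whole fit, 15.9% of genes were called higher and 11.3% lower in transdifferentiated cells against MEF. In muscle against MEF these shares were 17.3% and 18.3%. The PDZ-LIM and LIM counts in muscle, and the 1 of 5 calcineurin genes called higher there, were near them. The 3 capping protein genes are too few to set against such shares.

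Transdifferentiated cells differed from muscle in 7 of these 46 genes, 2 higher and 5 lower, with 39 neither and a median log2 fold change of -0.10. The shares over the whole fit were 7.58% called higher and 2.46% called lower. Fhl1, a LIM protein abundant in skeletal muscle, was at 3360 and 2719 CPM in transdifferentiated cells, against 768 and 698.8 CPM in muscle and 381.6 and 542.8 CPM in MEF. It was higher in transdifferentiated cells than in muscle by 2.05 ± 0.27 in log2 units (SE, with an adjusted p of 0.00195 in edgeR) and stayed called with each library left out in turn. Xirp2, a Xin protein that binds alpha-actinin, was higher by 1.76 ± 0.38 (edgeR adjusted p = 0.0207), not called without Muscle replicate 1 or 2 (adjusted p = 0.177 and 0.106). Of the 5 lower genes, the 3 with the smallest adjusted p were Mypn, Neb and Tcap. Mypn (myopalladin, which ties nebulin to alpha-actinin) was lower by a log2 fold change of -1.69 ± 0.32 (SE, edgeR adjusted p = 0.0116), Neb (nebulin) -1.63 ± 0.36 (0.0214) and Tcap (telethonin, the titin cap) -1.19 ± 0.27 (0.0232).

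These lower calls depended on single libraries. Mypn was not called without Muscle replicate 1 or 2 (adjusted p = 0.0757 and 0.058), and Neb not without Muscle replicate 2 or Transdifferentiated replicate 2 (0.157 and 0.0515). Tcap was not called without Muscle replicate 1 or 2 or Transdifferentiated replicate 1 (0.179, 0.0968 and 0.141). Without Muscle replicate 2 the count of lower genes was 0, and without Muscle replicate 1 it was 1. Of the 9 titin and nebulin anchors 4 were lower, 0 higher and 5 neither in transdifferentiated cells against muscle (median -0.86).

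**Figure D4:**
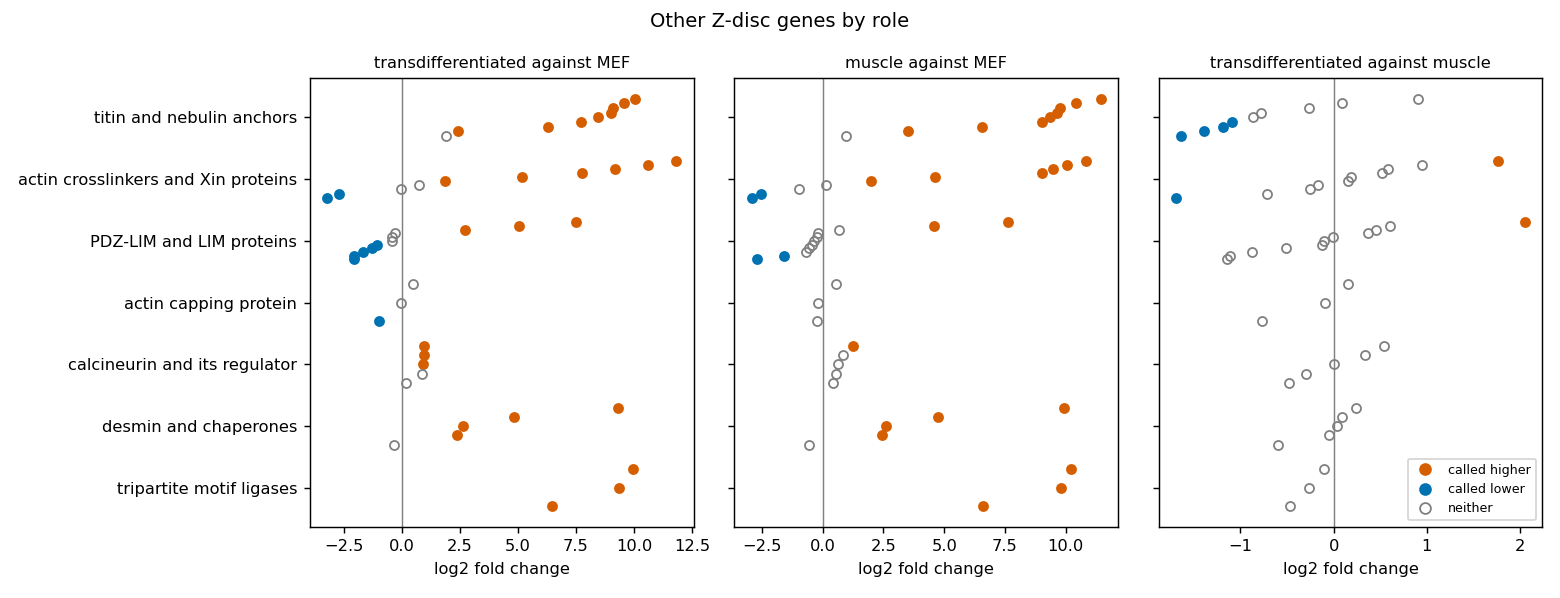
Log2 fold changes of the 46 other Z-disc genes, grouped by role, in each of the 3 comparisons, with 1 point per gene. Filled points were called (orange higher, blue lower) and open grey points were not. Flna is among the blue points of the crosslinkers on the left and in the middle, and the 4 blue points among the titin and nebulin anchors on the right are the genes lower in transdifferentiated cells than in muscle.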

How the data were processed

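Libraries from an mRNA kit (Lexogen SENSE) were read as 75-base single ends, per the labels' protocols. The table deposited by the authors holds raw read counts for each gene symbol. The submitters' processing notes name, without roles, featureCounts 1.6.2, HISAT2 2.1.0, DESeq2 1.26.0, Trim Galore 0.6.0 and the build mm10. The annotation and strand setting of the counting were not given. A second deposited table holds the authors' log2 fold changes, their standard errors and adjusted p-values for 2806 genes, per the file headers.

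Groups came from the sample titles. After filterByExpr on the groups, 17400 genes entered an edgeR 4.0.16 fit (R 4.3.3) of all 6 libraries with TMM scaling, 3 residual degrees of freedom, and tested by quasi-likelihood F tests with Benjamini-Hochberg adjustment over all tested genes. Alternatives were DESeq2 1.42.0 (Wald test), its size factors in edgeR, no filter, fits of 2 groups, a replicate block, and each library left out. The edgeR step was tested on simulated data. CPM used total counts times TMM factors, and CPM per kb the union of exons in GENCODE M21. Intervals of log2 fold changes are 95% and unadjusted. They and the standard errors were derived from the test, as the log2 fold change over the square root of F. For Myot, Csrp3 and Myoz3 against MEF such intervals were narrower than the exact ones from counts. The named genes are the 10 members, the 3 most significant other Z-disc genes in each direction (1 of them is not reported here), and the 3 nearest in pattern to Actn2, Actn4, Myoz2 and Csrp3. Members and lists were chosen with earlier results of these data known.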

Additional observations from a re-analysis of the deposited data

How the results depend on the processing

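Against MEF the counts of members called, 8 higher and 2 lower, held under DESeq2 size factors, no filter on low counts, the DESeq2 Wald test and the replicate block; with single libraries left out they ranged from 7 to 8 higher in transdifferentiated cells and from 1 to 2 lower in muscle. With only the 2 groups fitted the higher count was 7 in transdifferentiated cells, where Myoz3 missed the filter, and 8 in muscle. Against muscle the count of lower members was 1, Myoz3, with no filter and with only the 2 groups fitted, and 0 to 1 with single libraries left out. Differences near 0 changed sign: Actn1 against muscle was 0 with only the 2 groups fitted, 0.01 with the replicate block, and 0.25 and 0.24 without Muscle replicate 1 or Transdifferentiated replicate 1; Actn3 was 0.15 without Transdifferentiated replicate 1; Myot was -0.05 and -0.04 without Muscle replicate 2 or Transdifferentiated replicate 1. Of the members' fold changes recomputed, 315 kept direction and call, 7 changed sign, 4 gained a call and 3 lost one. A group left with 1 library was taken to vary like the others.

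Over all genes, single libraries left out gave 1280 to 1926 lower in transdifferentiated cells against MEF, 1980 to 3223 higher and 1778 to 3445 lower in muscle against MEF, and 589 to 1616 higher and 140 to 605 lower in transdifferentiated cells against muscle, where the lower count was 670 with no filter. The correlations of same-numbered deviations were 0.314 between MEF and muscle, and -0.529 and -0.291 for MEF and muscle with transdifferentiated cells. These values do not settle whether the replicate numbers pair the samples. With the replicate block the lower count against muscle was 265. The other Z-disc genes, computed under the alternatives after seeing the data, gave 5 lower against MEF and 2 lower against muscle with the replicate block, 8 lower against muscle with no filter, and 1 to 2 higher and 0 to 7 lower against muscle with single libraries left out. Over single libraries left out, Actn1 ranged from -0.30 to 0.25, Actn3 from -0.26 to 0.15 and Myot from -0.05 to 0.21. The cause was not tested.

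Shares depended on the length used. Actn2 plus Actn3 took 77.3%, 77.9% and 0.217% of alpha-actinin reads in transdifferentiated cells, muscle and MEF with no division by length and 81.3%, 81.8% and 0.279% with the longest transcript, and 83.8% to 86.5%, 83.8% to 87.1% and 0.363% to 0.406% with single libraries. Actn3 took 35.3% and 31.1% of the sarcomeric pair in transdifferentiated cells and muscle with no division and 36.3% and 32% with the longest transcript. Myoz2 took 94.3% and 92.6% of myozenin reads with no division. Depth limits Myoz3 and all folds that rest on 15 or fewer MEF reads.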

Other observations

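The myosin heavy chains were measured in the same libraries. Myh2, the myosin of fast oxidative fibres, was at 340.5 and 413.8 CPM in transdifferentiated cells, against 175 and 104.9 CPM in muscle, a log2 fold change of 1.43 ± 0.32 (SE; edgeR adjusted p = 0.0249). The other adult fast myosins were not called, with Myh1 at 489.2 and 546.6 CPM in transdifferentiated cells, against 898.8 and 938 CPM in muscle (-0.83 ± 0.27, edgeR adjusted p = 0.0985), and Myh4 differing by 0.09 ± 0.24 in log2 units (edgeR adjusted p = 0.912). The 3 summed to 981.6 and 1113 CPM in transdifferentiated cells, against 1221 and 1182 CPM in muscle. Myh7, the slow and cardiac myosin, was at 190.7 and 224.5 CPM in transdifferentiated cells, against 466.4 and 426.3 CPM in muscle (-1.10 ± 0.23, edgeR adjusted p = 0.0172). Embryonic Myh3 was at 4524 and 4907 CPM in transdifferentiated cells, against 6417 and 7293 CPM in muscle (-0.54 ± 0.34, edgeR adjusted p = 0.441), a difference that was not called, and at 4.732 and 10.38 CPM in MEF. The genes were picked from the marker lists after their values were seen.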
